A study of Mus musculus with 7 samples.

Results

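The 41 genes described here encode the enzymes of fatty acid oxidation and the machinery of the peroxisome. They were chosen by symbol, as 27 of 29 named genes that had a transcript cluster on the array (Etfb and Acsl1 were not named in the array annotation) and 14 genes whose symbol starts with Pex. They are 41 of 22198 transcript clusters measured, 1 for each gene. They were grouped as 15 mitochondrial genes, 22 peroxisomal genes, 2 of both organelles and 2 others. The 14 Pex genes were placed among the peroxisomal ones by symbol alone, Pex5l included. Signal came from Clariom S arrays, hybridised with RNA of sorted GFP-positive β-cells. KO cells (4 arrays) came from 2-week-old mice with the genotype Raptor -/-; RIP-Cre; Rosa26 GFP, and WT cells (3 arrays) from age-matched littermates with the genotype Raptor +/+; RIP-Cre; Rosa26 GFP, and the labels give the strain as C57BL/6. The methods describe the parental RIP-Cre line as a mixture of C57BL/6J and another inbred strain, so the background need not be pure. Both groups thus carry the GFP reporter on which cells were sorted and a Cre transgene whose expression the rat insulin promoter drives. The mice were sampled before the KO animals became hyperglycemic. Each array held RNA pooled from several animals of 1 genotype, so the spread between arrays is a spread between pools. Raptor, encoded by Rptor, is the defining subunit of mTOR complex 1, a kinase complex that couples nutrients to growth.

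Mitochondria oxidise most long-chain fatty acids. Acyl groups enter on carnitine, are shortened by a dehydrogenase, a hydratase, a second dehydrogenase and a thiolase, and pass their electrons through the electron transfer flavoprotein to the respiratory chain. Peroxisomes shorten very-long-chain and branched fatty acids with an acyl-CoA oxidase, a bifunctional enzyme and a thiolase of their own, and peroxins, the products of the Pex genes, bring these enzymes into the organelle and build its membrane. In the β-cell, fatty acids are both a fuel and a signal that modifies insulin secretion.

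All values are log2 signals after quantile normalization, in which 1 unit is a 2-fold change. A positive difference means a higher signal in KO than in WT cells, and errors are the standard error of the difference from limma, or the SD over arrays where stated. No gene passed the test after adjustment over all transcript clusters. The adjusted p (limma, Benjamini-Hochberg) was 1 for each of the 41 genes, and 0 of the 22198 transcript clusters passed the adjusted threshold, 0%. The unadjusted p of the same fit is given below as a description of how a difference compares with the spread between arrays. Among all transcript clusters, 484 (2.18%) had an unadjusted p below 0.05, and the differences had a median of 0.00 with quartiles of -0.22 and 0.23. KO replicates 3 and 4 and WT replicate 3 stood apart, with median correlations to the other arrays of 0.937, 0.924 and 0.933, against 0.954 to 0.961 for the remaining arrays. Rptor itself read 5.99, 5.96, 4.40 and 8.54 on the KO arrays, against 5.98, 5.26 and 6.08 on the WT arrays (difference 0.45 ± 0.86). The sources used here do not give where its probes lie relative to the deleted part. Rptor therefore did not check the labels, and every direction below follows them, including that of the array labelled KO replicate 4. Of 10 listed β-cell genes, markers of the sorted cell, 9 were measured, with a summed log2 signal of 21.0 to 21.6 in KO cells and 21.5 to 21.7 in WT cells. That sum is carried by Ins2 and Iapp, which stood at or near the upper limit of the scale. Mafa, also among the 9, read only 3.54 to 3.80 in KO cells and 3.44 to 3.60 in WT cells. Its mean signal lay at the 4.8 percentile of all transcript clusters, and its signal over background is not known. The median difference of the 9 genes was -0.69, and 2 of them had an unadjusted p below 0.05, Slc2a2 at -1.94 without overlap and Slc30a8 at -0.96. Markers of other islet cells were measured too. The α-cell gene Gcg was at the limit in both groups, and the 5 δ- and PP-cell genes were all above WT (median 0.91), 0 of them with an unadjusted p below 0.05 in limma. The part of these marker differences in the results below was not tested. Acinar markers (17 of 20 measured) ranged widely in both groups, from 16.4 to 22.0 in KO cells and from 13.5 to 21.6 in WT cells as a summed log2 signal. In such bulk samples, fewer cells of a type and less RNA per cell cannot be told apart.

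Of the 41 genes, 19 were above WT and 22 below it in the KO cells, with a median difference of -0.03. Only 3 had an unadjusted p below 0.05, namely Eci2, Acox3 and Acaa1a, all higher in KO cells. They are 7.32% of the 41 genes, against 2.18% of all transcript clusters, of which 1.01% were higher and 1.17% lower in KO. The same 3 genes were the only ones whose KO and WT arrays did not overlap, against 3.93% of all transcript clusters (1.98% higher and 1.95% lower in KO). These calls depended on the normalization. With the deposited values the genes without overlap were Acaa1a, Acox3 and Pex19, beside 3.20% of all transcript clusters. With median centring they were Acox3 and Pex19, beside 3.63%. Pex19 was lower in KO. In both fits only Acox3 and Eci2 had an unadjusted p below 0.05 in limma, beside 1.75% and 1.79% of all transcript clusters. The means lay 1.5-fold or more apart, higher in KO, for 5 genes (Eci2, Acox3, Abcd3, Acadl and Acaa1a), beside 6.84% of all transcript clusters. They lay as far apart, lower in KO, for 8 genes (Acads, Hadhb, Etfa, Etfdh, Pex2, Pex13, Pex5l and Pex7), beside 7.21%. The peroxisomal enzymes and the transporter Abcd3 had a median difference of 0.31 (5 of 8 above WT), the 14 Pex genes of -0.17 (5 of 14 above WT) and the 15 mitochondrial genes of -0.30 (6 of 15 above WT). The mitochondrial median became 0.11 without WT replicate 3, and with KO replicates 3 and 4 and WT replicate 3 all left out it became 0.07, while the median of the peroxisomal enzymes and Abcd3 became -0.135. Without KO replicates 2, 3 or 4 the mitochondrial median was -0.08, -0.16 and -0.07, and with the replicate block it was -0.07. The Pex median was -0.34 without KO replicate 3, -0.32 without WT replicate 3, -0.28 without all 3 arrays that stood apart, -0.33 without transcript clusters below the 25 percentile of mean signal, and -0.08 both without KO replicate 4 and with the replicate block. The median of the peroxisomal enzymes and Abcd3 was 0.08 without KO replicate 3 and 0.11 with array weights.

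**Figure D1:**
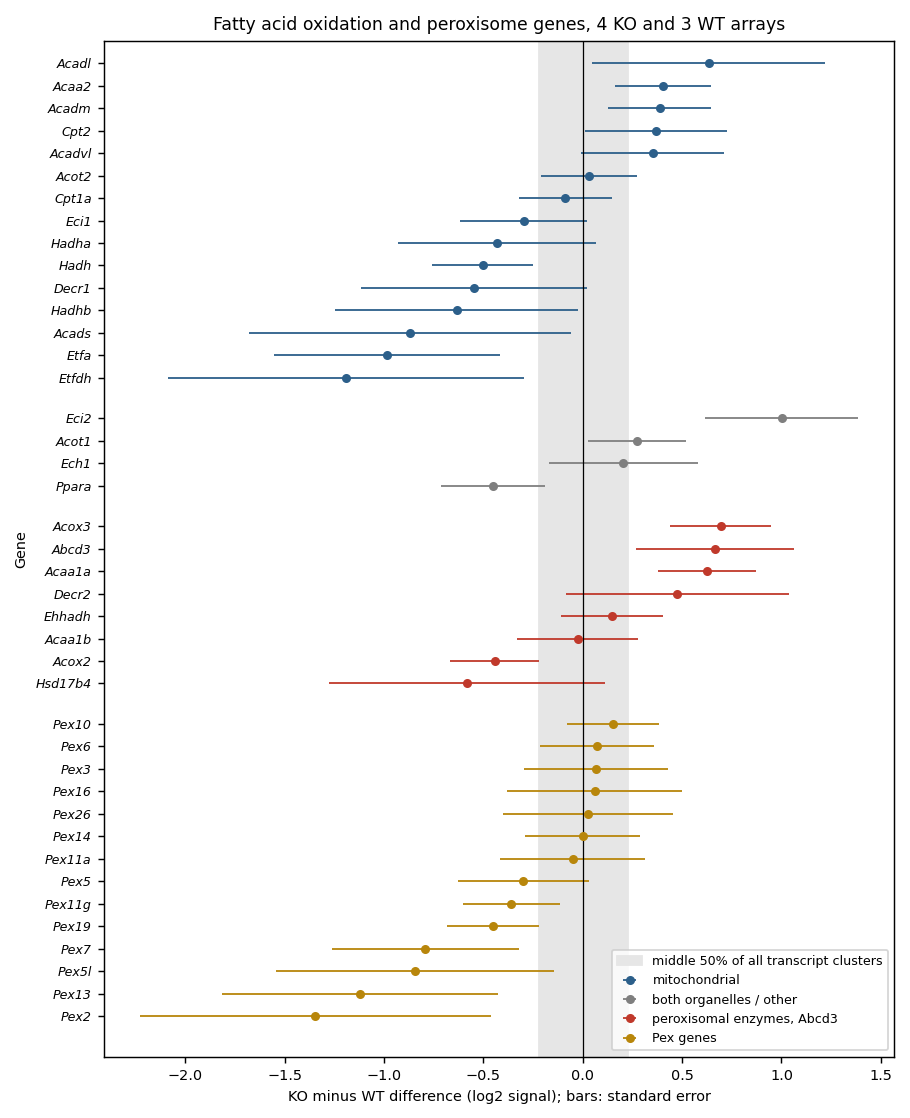
KO minus WT difference in log2 signal for each of the 41 genes, grouped by organelle and role, with the standard error of limma as bars (4 KO and 3 WT arrays); the grey band spans the middle 50% of all transcript clusters, from -0.22 to 0.23. Eci2 lies farthest to the right at 1.0 and Pex2 farthest to the left at -1.35, and the longest bars belong to genes in which 1 array stood apart.

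The 3 genes that were higher in KO cells without overlap all belong to enzymes found in peroxisomes, Eci2 being shared with mitochondria. Eci2, an isomerase that moves the double bond of unsaturated fatty acids to where the oxidation cycle can continue, read 8.68, 9.18, 9.99 and 8.73 on KO replicates 1 to 4, against 8.39, 8.44 and 7.61 on WT replicates 1 to 3. Every KO array was above every WT array, and the gap came mainly from a high KO replicate 3 and a low WT replicate 3. The difference was 1.0 ± 0.39, or 2.00-fold between the means (unadjusted p = 0.0333 in limma). Acox3, an oxidase that takes the first step on branched fatty acids, read 5.28, 5.11, 5.77 and 5.88 in KO cells, against 4.93, 4.77 and 4.75 in WT cells. Its WT arrays were close to each other and its KO arrays spread above them, with a difference of 0.69 ± 0.25 or 1.62-fold (unadjusted p = 0.0268 in limma). Acaa1a, the thiolase that releases acetyl-CoA at the end of the peroxisomal cycle, read 7.33, 7.74, 7.34 and 7.34 in KO cells, against 6.88, 7.14 and 6.42 in WT cells. The KO arrays again lay above the WT arrays, by 0.63 ± 0.25 or 1.54-fold (unadjusted p = 0.0361 in limma), with WT replicate 3 lowest.

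The size of these differences depended on single arrays. Without WT replicate 3 the differences were 0.73 for Eci2, 0.67 for Acox3 and 0.43 for Acaa1a, with unadjusted p of 0.118, 0.0671 and 0.131 in limma. In that fit 0 of the 41 genes had an unadjusted p below 0.05, beside 1.36% of all transcript clusters. Without KO replicate 3 only Acaa1a did, beside 1.91%. Leaving out other single arrays also took the unadjusted p above 0.05, namely KO replicate 2 for Eci2 (0.065), KO replicate 4 and WT replicate 2 for Acox3 (0.0565 and 0.0731), and KO replicates 1 and 2 and WT replicate 1 for Acaa1a (0.0536, 0.0884 and 0.0696). The differences stayed positive in each case. With all 3 arrays that stood apart left out, Eci2 differed by 0.58, Acox3 by 0.34 and Acaa1a by 0.60, on 2 KO and 2 WT arrays, with unadjusted p of 0.073, 0.219 and 0.0646. Blocking on the replicate number, which sets KO replicate 4 aside, left 1 gene, Acaa1a, below 0.05 in place of 3, with 0.66 (unadjusted p = 0.0398 in limma). The share of all transcript clusters below 0.05 with the block was 2.61%. In that fit Eci2 differed by 1.14 and Acox3 by 0.57, with unadjusted p of 0.0568 and 0.0822. With the mean log2 signal of the acinar markers as a covariate the differences were 1.0, 0.68 and 0.59 in the same order. The unadjusted p were 0.0475, 0.0406 and 0.0416 in limma. Whether acinar cells have a part in these differences was not tested.

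**Figure D2:**
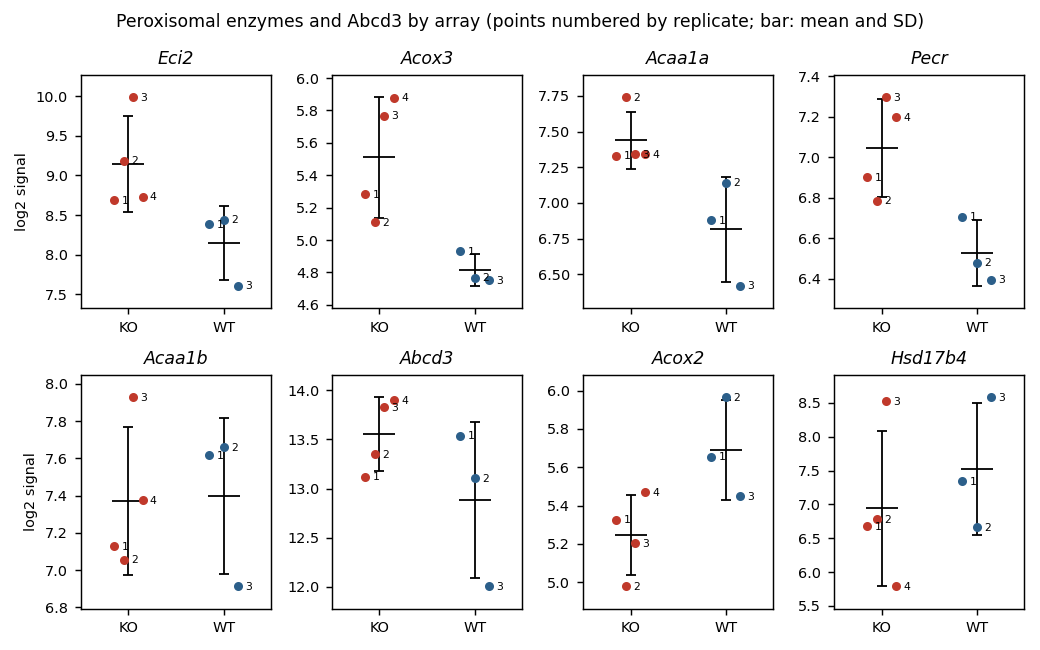
Vertical axes give the log2 signal of Eci2, Acox3, Acaa1a, Pecr, Acaa1b, Abcd3, Acox2 and Hsd17b4, with KO (4 arrays) left of WT (3 arrays); points are arrays numbered by replicate, and the black bars are the group mean and SD. In the panels of Eci2, Acox3, Acaa1a and Pecr every KO point lies above every WT point, while those of the other 4 genes overlap.

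The sequences just upstream of the 3 genes and of Pecr, described below, are shown because their KO and WT arrays did not overlap. That of Acaa1b, the close paralog of Acaa1a, is shown beside them, and its arrays did overlap. RefSeq (GRCm38.p6) promoter entries were found for 35 of the 41 genes, with 40 windows of 250 bases before an annotated start among them, and 32851 windows for all genes. The windows lie at chr13:34994145-34994394 on the minus strand for Eci2, chr5:35582784-35583033 on the plus strand for Acox3, chr9:119341044-119341293 on the plus strand for Acaa1a, chr1:72284322-72284571 on the minus strand for Pecr and chr9:119157094-119157343 on the minus strand for Acaa1b. The start used lies 32971 bases inside the outermost annotated start for Eci2, 266 bases for Acaa1a and 53 bases for Acox3, so these windows belong to 1 of several annotated starts or overlap the gene, whereas for Pecr and Acaa1b it is the outermost start. Which start β-cells use was not measured by these arrays. Capitals mark the GC box (GGGCGG, or CCGCCC for the other strand) and the CCAAT box (CCAAT, or ATTGG for the other strand), and each line runs 5′ to 3′ along the strand of the gene.
Eci2: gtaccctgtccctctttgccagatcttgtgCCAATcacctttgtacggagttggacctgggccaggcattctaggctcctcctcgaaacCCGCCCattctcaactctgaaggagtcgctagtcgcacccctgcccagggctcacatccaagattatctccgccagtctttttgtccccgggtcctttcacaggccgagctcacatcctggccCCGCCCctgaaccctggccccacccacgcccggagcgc
Acox3: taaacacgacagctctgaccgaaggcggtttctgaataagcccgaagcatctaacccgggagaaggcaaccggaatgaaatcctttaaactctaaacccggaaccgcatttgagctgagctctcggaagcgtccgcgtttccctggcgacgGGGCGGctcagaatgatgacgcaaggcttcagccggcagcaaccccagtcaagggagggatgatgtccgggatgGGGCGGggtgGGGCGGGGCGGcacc
Acaa1a: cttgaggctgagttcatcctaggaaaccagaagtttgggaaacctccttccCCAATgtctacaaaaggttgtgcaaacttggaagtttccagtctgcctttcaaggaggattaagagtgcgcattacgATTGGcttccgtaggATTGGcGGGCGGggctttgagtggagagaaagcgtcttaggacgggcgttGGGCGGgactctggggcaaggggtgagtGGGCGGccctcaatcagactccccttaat
Pecr: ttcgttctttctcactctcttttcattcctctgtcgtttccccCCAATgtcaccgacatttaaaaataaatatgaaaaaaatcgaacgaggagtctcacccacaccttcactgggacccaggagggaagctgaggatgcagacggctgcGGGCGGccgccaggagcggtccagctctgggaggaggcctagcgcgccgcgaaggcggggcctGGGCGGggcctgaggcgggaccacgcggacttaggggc
Acaa1b: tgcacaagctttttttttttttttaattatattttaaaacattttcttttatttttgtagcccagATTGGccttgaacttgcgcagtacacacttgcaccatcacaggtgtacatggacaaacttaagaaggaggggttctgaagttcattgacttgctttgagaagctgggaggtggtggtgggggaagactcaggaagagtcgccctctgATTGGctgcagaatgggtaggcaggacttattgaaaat
The GC box was found 2 times in the Eci2 window, 4 times in that of Acox3 (the last 2 share 1 base), 3 times in that of Acaa1a and 2 times in that of Pecr, and 0 times in that of Acaa1b. The CCAAT box was found 1 time in the Eci2 window, 3 times in that of Acaa1a, 1 time in that of Pecr and 2 times in that of Acaa1b, and 0 times in that of Acox3. Searched on both strands, the GC box was present in 60.0% of the windows of the 41 genes and in 32.742% of all windows, and the CCAAT box in 37.5% and 33.85%. The windows of the 41 genes were also richer in G and C, with a median of 58.8% against 52.4% for all windows. The element bound by PPAR receptors, which regulate fatty acid oxidation, is AGGTCA repeated in the same direction after 1 base of any kind. It was present in 0.0% of the windows of the 41 genes and in 0.033% of all windows, and with up to 2 mismatches in 2.5% (Etfa alone) and in 3.236% of all windows. The single unit AGGTCA, also counted within the longer element, was in 10.0% and 14.024%. The E-box CACGTG was in 0.0% and 6.021%. A match of letters is a description and not a site, and 250 bases leave out more distant elements.

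The remaining peroxisomal enzymes had no common direction. Acaa1b, the second peroxisomal thiolase of the mouse, read 7.13, 7.06, 7.93 and 7.37 in KO cells, against 7.62, 7.66 and 6.91 in WT cells, a difference of -0.03 ± 0.31. Its groups overlapped, unlike those of Acaa1a, though whether the 2 thiolases differ from each other was not tested and cross-hybridisation between such close paralogs is not known here. Abcd3, the membrane transporter that brings acyl-CoA into the peroxisome, read 13.12, 13.35, 13.83 and 13.90 in KO cells, against 13.54, 13.11 and 12.01 in WT cells (0.67 ± 0.40, unadjusted p = 0.137 in limma). WT replicates 2 and 3 were below all KO arrays, WT replicate 2 only just, and WT replicate 1 was among them. Without WT replicate 3 the difference was 0.22, and without WT replicate 1 it was 0.99. With 1 array left out the unadjusted p ran from 0.0479 to 0.507 in limma, below 0.05 in 1 of 7 fits. Without all 3 arrays that stood apart the difference was -0.09. Hsd17b4, the bifunctional enzyme for branched and very-long-chain fatty acids, read 6.68, 6.78, 8.53 and 5.79 in KO cells, against 7.34, 6.66 and 8.58 in WT cells (-0.58 ± 0.69). The replicate 3 arrays of both genotypes were the high ones. Acox2, the oxidase that acts on bile acid intermediates and branched fatty acids, read 5.33, 4.98, 5.20 and 5.47 in KO cells, against 5.65, 5.96 and 5.45 in WT cells. It was the peroxisomal enzyme nearest to being lower without overlap (-0.44 ± 0.22, unadjusted p = 0.0863 in limma), with KO replicate 4 just above WT replicate 3. On the 2 KO and 2 WT arrays left without those that stood apart it differed by -0.71, with an unadjusted p of 0.0494. Ehhadh, the other bifunctional enzyme, differed by 0.15 ± 0.26. Decr2, a reductase for unsaturated fatty acids, differed by 0.48 ± 0.56, with 10.16 on KO replicate 3 and 7.73 to 8.66 on every other array.

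Ech1, an isomerase found in mitochondria and peroxisomes like Eci2, read 8.46, 6.83, 7.58 and 7.62 in KO cells, against 7.65, 7.41 and 7.20 in WT cells (0.20 ± 0.37). Its KO arrays lay on both sides of the WT arrays.

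None of the 15 mitochondrial genes had an unadjusted p below 0.05 or arrays without overlap, beside 2.18% and 3.93% of all transcript clusters. The carnitine shuttle differed little. Cpt1a, the outer-membrane enzyme that commits fatty acids to oxidation, read 7.61, 7.76, 8.0 and 7.71 in KO cells, against 7.68, 7.65 and 8.24 in WT cells (-0.09 ± 0.23), and Cpt2, which releases the acyl group inside, differed by 0.37 ± 0.36. Among the acyl-CoA dehydrogenases, each of which takes a range of chain lengths, Acadvl (0.35 ± 0.36), Acadl (0.63 ± 0.59) and Acadm (0.39 ± 0.26) were above WT. Acads, for the shortest chains, read 7.04, 6.65, 6.66 and 7.37 in KO cells, against 6.20, 7.21 and 9.99 in WT cells. Its difference of -0.87 ± 0.81 came from WT replicate 3, and without that array it was 0.23. Hadha (-0.43 ± 0.50) and Hadhb (-0.64 ± 0.61), the subunits of the trifunctional protein that carries out the later steps on long chains, were both below WT. Hadh, the dehydrogenase for shorter chains whose loss causes excess insulin secretion, read 15.13, 14.81, 14.78 and 15.16 in KO cells, against 15.81, 15.03 and 15.59 in WT cells. Only WT replicate 2 lay within the KO range, and the difference was -0.50 ± 0.25 (unadjusted p = 0.0853 in limma). With 1 array left out the difference ran from -0.73, without WT replicate 2, to -0.35. The unadjusted p of these fits ran from 0.0256 to 0.265 in limma, below 0.05 in 1 of 7. Acaa2, the mitochondrial thiolase, was above WT by 0.40 ± 0.24, with 6.01 to 6.74 in KO cells and 5.94 to 6.10 in WT cells. With 1 array left out its difference ran from 0.30 to 0.56, the latter without KO replicate 4. The unadjusted p ran from 0.0441 to 0.280 in limma, below 0.05 in 1 of 7 fits.

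The enzymes that pass on the electrons had the largest mean differences of the mitochondrial genes. Etfdh, which hands electrons from the flavoprotein to ubiquinone, read 7.74, 8.06, 8.52 and 9.41 in KO cells, against 8.47, 8.41 and 11.98 in WT cells (-1.19 ± 0.89). WT replicate 3 was far above all others, and without it the difference was -0.02. Etfa, a subunit of the flavoprotein, read 10.82, 9.81, 8.72 and 8.88 in KO cells, against 10.51, 11.26 and 9.87 in WT cells (-0.99 ± 0.57, unadjusted p = 0.124 in limma). KO replicate 1 was as high as the WT arrays and the others were below them. With 1 array left out the difference ran from -1.41, without KO replicate 1, to -0.63. The unadjusted p ran from 0.0202 to 0.356 in limma, below 0.05 in 1 of 7 fits. For unsaturated fatty acids, Eci1, the mitochondrial isomerase, differed by -0.30 ± 0.32 and Decr1, the reductase, by -0.55 ± 0.57. Acot2, a mitochondrial thioesterase, differed by 0.03 ± 0.24, with 6.54, 6.72, 6.85 and 7.27 in KO cells and 6.65, 6.78 and 7.02 in WT cells. Its cytosolic paralog Acot1 read 4.81, 4.38, 4.41 and 4.81 in KO cells, against 4.14, 4.13 and 4.72 in WT cells (0.27 ± 0.25). Neither thioesterase separated the groups.

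**Figure D3:**
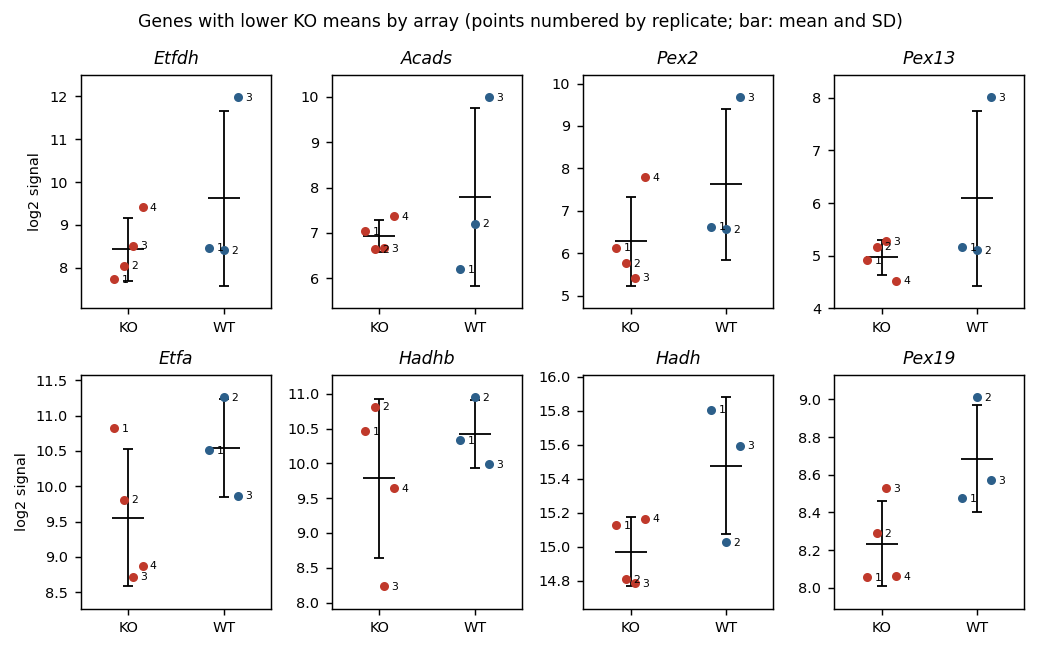
Vertical axes give the log2 signal of 8 genes whose mean was lower in KO cells (Etfdh, Acads, Pex2, Pex13, Etfa, Hadhb, Hadh and Pex19), with KO (4 arrays) left of WT (3 arrays); points are arrays numbered by replicate, and the black bars are the group mean and SD. In Etfdh, Acads, Pex2 and Pex13 the WT mean is lifted by WT replicate 3 (11.98, 9.99, 9.68 and 8.01), while in Hadh and Pex19 the groups overlap by 1 array.

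The 14 Pex genes had no member with an unadjusted p below 0.05 or without overlap, beside 2.18% and 3.93% of all transcript clusters. Pex2, a RING-finger ubiquitin ligase subunit of the import machinery, had the largest difference of the 41 genes at -1.35 ± 0.88, and read 6.13, 5.77, 5.42 and 7.79 in KO cells, against 6.62, 6.56 and 9.68 in WT cells. Pex13, a subunit of the membrane docking complex, read 4.91, 5.17, 5.27 and 4.52 in KO cells, against 5.16, 5.10 and 8.01 in WT cells (-1.12 ± 0.70). WT replicate 3 was high for both genes, and without it they differed by -0.32 and -0.16. Pex5l, a relative of the import receptor Pex5 found mainly in brain, differed by -0.84 ± 0.70. WT replicate 1 alone was high at 11.94, above 8.50 to 9.64 in KO cells, and without it the difference was 0.08. Of the import receptors, which carry proteins with a targeting signal, Pex7 differed by -0.79 ± 0.47 (5.79 to 7.57 in KO cells and 6.93 to 7.73 in WT cells) and Pex5 by -0.30 ± 0.33. Pex7 was highest among KO arrays on replicate 2. With 1 array left out its difference ran from -1.16, without KO replicate 2, to -0.53. The unadjusted p ran from 0.0129 to 0.351 in limma, below 0.05 in 1 of 7 fits. Pex19, the chaperone of peroxisomal membrane proteins, read 8.06, 8.29, 8.53 and 8.06 in KO cells, against 8.47, 9.01 and 8.57 in WT cells (-0.45 ± 0.23, unadjusted p = 0.0917 in limma). Only KO replicate 3 reached into the WT range, and with the deposited values or median centring the groups did not overlap. The membrane-building partners of Pex19, Pex3 and Pex16, differed by 0.07 ± 0.36 and 0.06 ± 0.44. Pex11a and Pex11g, which act in peroxisome division, differed by -0.05 ± 0.37 and -0.36 ± 0.24. Pex6 and Pex26 (receptor recycling) differed by 0.07 ± 0.29 and 0.03 ± 0.43 and Pex10 (RING ligase) by 0.15 ± 0.23, and the arrays overlapped. Pex14 (docking) averaged 8.02 in both KO and WT cells. Over the 14 genes, the mean log2 signal of an array was 6.06 to 6.15 in KO cells and 6.31 to 6.54 in WT cells. The gap between these ranges rests on the high WT arrays of Pex2, Pex13 and Pex5l. In a mean without these genes, WT replicate 3 lies among the KO arrays. How often a list of genes shows such a gap was not tested.

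**Figure D4:**
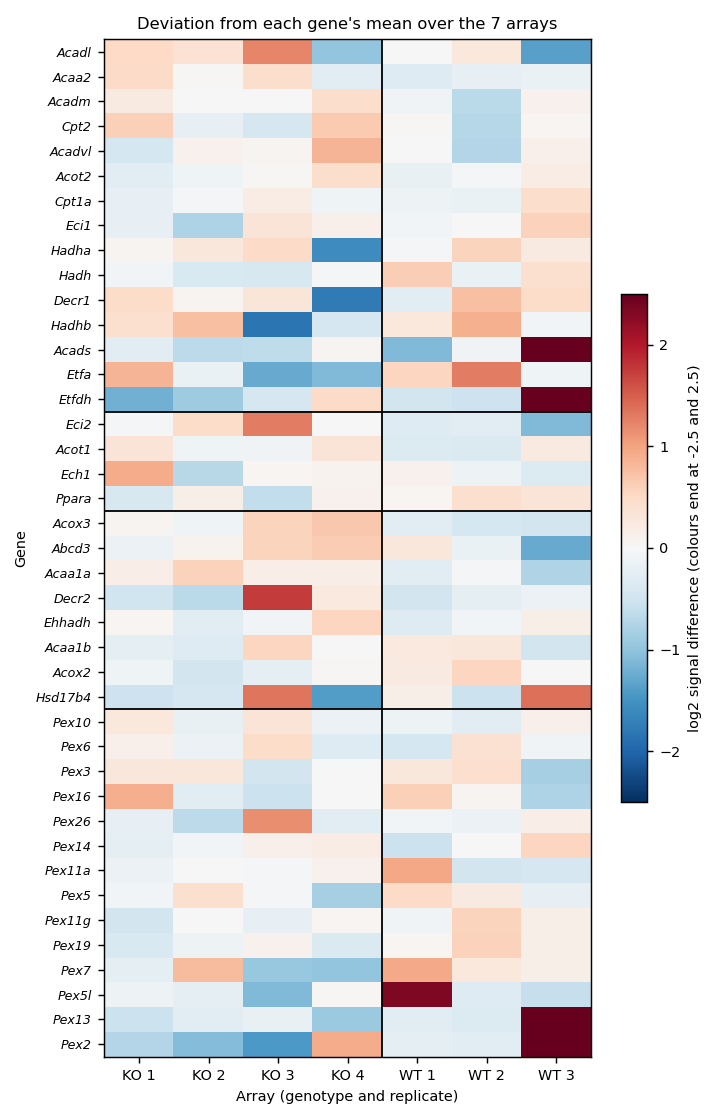
Deviation of each array from the gene's own mean over the 7 arrays, in log2 signal, for the 41 genes (rows) on KO replicates 1 to 4 and WT replicates 1 to 3 (columns); red is above and blue below the mean. The darkest red cells are those of Acads, Etfdh, Pex13 and Pex2 on WT replicate 3 and of Pex5l on WT replicate 1, and only Eci2, Acox3 and Acaa1a are higher on each KO array than on any WT array.

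Ppara, the lipid-sensing nuclear receptor that regulates many of these genes in liver, read 3.62, 4.17, 3.42 and 4.13 in KO cells, against 4.08, 4.43 and 4.35 in WT cells (-0.45 ± 0.26, unadjusted p = 0.123 in limma). KO replicates 2 and 4 overlapped the lowest WT array. Its mean signal lay at the 13.9 percentile of all transcript clusters, and Ppara, Pex10 and Pex26 were the 3 of the 41 genes below the 25 percentile. Signal over background is not known for them.

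Arrays with equal replicate numbers shared part of their deviations. Set against the WT array of the same number, the KO array was lower for all 3 numbers in 9 genes (Hadh, Eci1, Etfdh, Acot2, Ppara, Acox2, Pex11g, Pex19 and Pex2), or 22.0% of the 41, against 12.3% of all transcript clusters. It was higher for all 3 numbers in 6 genes (Acadl, Acaa2, Eci2, Acox3, Acaa1a and Pex10), or 14.6%, against 12.2%. These counts leave out KO replicate 4.

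Beyond the 41 genes, 85 of 94 further genes of lipid oxidation, peroxisomes and their regulation were measured. In KO cells 49 were above WT and 36 below it, with a median difference of 0.05. The difference had an unadjusted p below 0.05 for 1 of the 85, Pecr, which was also the only one without overlap. Over all transcript clusters, 2.18% had such a p and 3.93% did not overlap. Pecr, a peroxisomal reductase of enoyl-CoA, read 6.90, 6.78, 7.30 and 7.20 in KO cells, against 6.71, 6.48 and 6.39 in WT cells (0.52 ± 0.22 or 1.43-fold, unadjusted p = 0.0472 in limma). All KO arrays were above all WT arrays, with KO replicate 2 nearest to them. With the replicate block the difference was 0.47, and without the 3 arrays that stood apart it was 0.29, with unadjusted p of 0.134 and 0.305. Its unadjusted p was also above 0.05 on leaving out any single array other than KO replicate 2. By compartment, 8 of 20 further mitochondrial genes were above WT (median -0.04), 20 of 35 peroxisomal genes (median 0.05) and 21 of 30 others (median 0.12).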

How the data were processed

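Sorted β-cells of 4 KO and 3 WT pools were measured on Clariom S arrays. The authors deposited 1 log2 value per transcript cluster and array, between 2.24 and 19.93. Affymetrix Expression Console and MAS5 are named in the processing notes of the submitters and GeneSpring in the methods. The program that gave the values, and the background correction, are not given in the sources used here. Depth does not apply, and the number of arrays limits the precision.

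Groups were taken from the sample labels. Names came from the platform annotation, with 1 symbol for 19565, several for 0 and none for 2633 of 22198. The 41 members and all lists were chosen with earlier results of these data known, so no p was computed for a list. Each member had 1 transcript cluster. Array medians of the deposited values ran from 5.52 to 5.66, more than 0.1 apart, so the values were quantile normalized. KO was compared with WT in limma (version 3.58.1, under R version 4.3.3) by lmFit and eBayes. Tests were two-sided and took no covariate, and p-values were adjusted over all 22198 transcript clusters by Benjamini-Hochberg, with no filter on dim ones and with limits of p 0.05 and 1.5-fold. The fit was tested on simulated data.

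Values on every array are given for members with an unadjusted p below 0.05 or without overlap, the 2 other members with the largest difference among mitochondrial genes, peroxisomal enzymes and Pex genes, Ppara, Cpt1a, Ech1, Eci2, the paralog pairs of Acaa1a and Acot1, and Pecr. Acads, Hadh, Acox2 and Pex19 were added after their values were seen.

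KO and WT arrays share replicate numbers 1 to 3 in their titles. Over all transcript clusters, what remained after taking out each group mean correlated at 0.16, 0.243 and 0.165 for equal numbers and between -0.181 and 0.0233 for unequal ones. The numbers were therefore treated as a possible pairing. The main fit, which gave the p-values and errors, did not use it. No source states what equal numbers share. A fit with the number as a block was an alternative. The others were the deposited values, median centring, cyclic loess, leaving out transcript clusters below the 25 percentile, the mean over transcript clusters of a symbol, a variance trend with robust eBayes, array weights, the methods' t-test and leaving out each array. A fit on 2 KO and 2 WT arrays and the acinar signal as a covariate were added after seeing the data. Promoter windows came from RefSeq (GRCm38.p6), matched by symbol.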

Additional observations from a re-analysis of the deposited data

Results flagged for a closer look

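In 46 groups of 4 arrays, formed by the KO arrays for single genes and for gene lists, 2 had 1 array far from the others, where chance alone gives about 1 in 20 groups, or 2.3 of 46. For Acaa1a, KO replicate 2 (7.74) was set apart from the other KO arrays (7.33 to 7.34), and its gap took up 0.976 of the range of the group. For the median log2 signal over the 22 peroxisomal genes, KO replicate 1 (6.34) was set apart from the other KO arrays (5.93 to 5.94), with a gap of 0.962 of the range. The WT arrays had 6.75, 6.38 and 6.56 for that median, all above the KO arrays, while the median of the differences of the 22 genes was -0.01.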

How the results depend on the processing

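Of 735 differences of single genes over 18 alternatives, 659 kept their direction and side of p 0.05, 21 lost p 0.05, 8 gained it and 47 moved. Of these 47, 46 changed sign without passing p 0.05 in either fit, 10 of them on 2 KO and 2 WT arrays, and Acaa1b moved to -0.53 there by more than the spread. Transcript clusters past the adjusted p numbered 0 under all 18. The 3 genes past p 0.05 became 1 with trend and robust variances, 5 with array weights and 1 with the replicate block. Of the 5, Acox2 and Pex19 were lower. The shares over all transcript clusters in these fits were 2.49%, 2.69% and 2.61%. On 2 KO and 2 WT arrays 1 gene passed (Acox2), beside 2.01%. With 1 array left out 0 to 3 genes passed, beside 1.36% to 3.13%. Without WT replicate 3 it was 0 genes, beside 1.36%. By the methods' t-test 2 of the 3 genes passed (Acox3 and Acaa1a), with 534 transcript clusters at p 0.05 and 0 after Benjamini-Hochberg. Genes without overlap numbered 3 with the deposited values (Pex19 in place of Eci2) and 2 with median centring (Acox3 and Pex19). They numbered 4 to 8 with 1 array left out, where the share over all transcript clusters was 7.18% to 9.69%. On 2 KO and 2 WT arrays they numbered 15, beside 26.2% of all transcript clusters. The further gene Pecr was lost (0 genes) with the deposited values, median centring, the 25 percentile filter, trend and robust variances, array weights, the replicate block and the acinar covariate, and 0 to 2 genes passed with 1 array left out. The median of the peroxisomal genes was -0.21 on 2 KO and 2 WT arrays and -0.214 to 0.014 with 1 array left out, and that of the peroxisomal enzymes and Abcd3 was -0.135 on 2 KO and 2 WT arrays. Transcript clusters at p 0.05, 484 in all, numbered 311 with the filter and 302 to 695 with 1 array left out. Fewer arrays or transcript clusters enter several of these fits. Otherwise the cause was not tested. The replicate block changed no other count of calls by over 1.5 times, and took the medians of the mitochondrial and Pex genes to -0.07 and -0.08. With 4 and 3 pools and no detection calls, small differences and dim genes such as Pex10 cannot be resolved.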
